A study of Mus with 8 samples.

Results

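The collagen gene family was described in RNA sequencing of the mouse uterus at pseudopregnancy day 6, by rows of the count table whose symbol is Col, a number, the letter a and a number with nothing after it. This rule gave 44 of the 31269 genes in the table. They were sorted by the kind of assembly they build into 11 fibrillar chains, 6 basement membrane chains (type IV), 6 beaded filament chains (type VI), 9 fibril-associated chains, 4 network or anchoring chains, 4 transmembrane chains, 2 multiplexins and 2 others. The 8 libraries were 4 controls and 4 from uteri labelled with a myometrial deficiency of PGR, the progesterone receptor. All came from uterine tissue at the same stage, which the labels place around implantation sites although pseudopregnancy carries no embryos. Not given in the sources used here are strain, age, alleles and the promoter that drives the deletion. The comparison asks how the uterine transcriptome differs when the muscle wall is labelled as deficient in the receptor.

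Collagens are the main structural proteins of the extracellular matrix. Each molecule is a helix of alpha chains from the same or related genes, so chains of 1 type are made and assembled together. Fibrillar collagens bundle into the fibres that give the uterine wall its tensile strength, type IV collagen forms the sheet under epithelium and around muscle cells and vessels, and type VI collagen links cells to the fibres. In the uterus this matrix is remodelled in each cycle and pregnancy, with stromal fibroblasts and smooth muscle cells among its main sources.

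Total counts per library ran from 70296369 to 72364750. Levels are given as CPM, counts relative to the TMM-scaled library size, and differences as log2 of labelled deficient over control. Pgr itself measured 131, 180.0, 144 and 171 CPM in controls 1 to 4 and 187, 184, 177 and 159.7 CPM in libraries 1 to 4 labelled deficient (log2 difference 0.18 ± 0.11 SE, adjusted p = 0.338 in edgeR), so the group is called by its label throughout. All markers fixed for smooth muscle (9), stromal fibroblasts (9), epithelium (9) and blood endothelium (7) were expressed in these libraries. Libraries 2 and 3 labelled deficient stood apart from the other 6 in summed epithelial and endothelial markers. They did not in summed smooth muscle markers (4682 and 4898 CPM against 4196 to 6352 CPM). Summed stromal fibroblast markers were above the other 6 in library 2 (1998 CPM) and within their range in library 3 (1788 CPM). Their summed epithelial markers were 3164 and 2266 CPM against 1117 to 1416 CPM in the others, and their summed endothelial markers 701 and 801 CPM against 1027 to 1285 CPM. Not all epithelial markers followed the sum. Krt18 (271 and 300 CPM) and Cldn4 (30.3 and 34.6 CPM) were within the range of the other 6. Cldn3 (130 and 106 CPM) was within that range in library 2 and below it in library 3. Among the endothelial markers, Kdr (102.3 and 96.5 CPM) was within the range of the other 6 in library 2 and just below it in library 3. Separate animals are not stated for the libraries, and p-values then cover only the spread among these 8, which may be technical.

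Collagen transcripts took a larger share of the library in the uteri labelled deficient. They made up 1.32, 1.88, 1.63 and 1.55% of all counts in controls 1 to 4 and 2.21, 2.58, 2.10 and 1.95% in the 4 labelled deficient. All 4 libraries labelled deficient lay above all 4 controls, with group means of 1.60 ± 0.228% and 2.21 ± 0.268% (SD, n = 4 each). The groups also stayed apart with the type VI chains taken out, at 1.14 ± 0.130% and 1.44 ± 0.125%. These sums of reads are descriptions with no test. In whole tissue, more cells of a type and more RNA per cell cannot be told apart.

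Single chains had differences of both signs, and none passed edgeR's quasi-likelihood test with Benjamini-Hochberg adjustment over all genes. Of the 44 members, 40 passed the filter on low counts and 30 of these had a positive difference, a share of 75.0% against 52.0% of all genes tested. Their median log2 difference was 0.35, against 0.01 over all 17629 genes tested. At an adjusted p under 0.05 edgeR called 0 of 40 members, on a background of 0.0% of all genes (smallest adjusted p among members 0.0906). At an unadjusted p under 0.05 there were 19 members, or 47.5%, on a background of 24.8%. Of these 15 were higher in the libraries labelled deficient (background 13.0%) and 4 lower (background 11.8%). DESeq2 called 14 members, 11 higher and 3 lower, or 35.0% on a background of 14.1% (7.41% higher, 6.7% lower), while limma-voom called 0 on a background of 0.0113%. In 11 members, 8 higher and 3 lower, the 2 groups did not overlap, a share of 27.5% on a background of 16.3% (7.61% higher, 8.66% lower).

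The DESeq2 count varied with the library left out, as did the background over all genes. It was 3 without control library 1 (background 7.39%), 4 without control library 3 (9.84%) and 3 without control library 4 (5.23%). The shares of the 40 members without control library 1 or 3 were thus near the background. The count was 9, 5 and 7 without libraries 1, 2 and 3 labelled deficient in turn (backgrounds 13.9, 8.73 and 9.77%). Without library 4 labelled deficient it was 17 (22.2%), and without control library 2 it was 14 (11.7%). With libraries 2 and 3 labelled deficient both left out, an alternative added after seeing the data, 16 members had an unadjusted p under 0.05 in edgeR (background 18.6%) and DESeq2 called 10 (background 8.28%), of which 4 were among the 14. These 4 were Col4a2, Col11a1, Col11a2 and Col20a1.

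**Figure D1:**
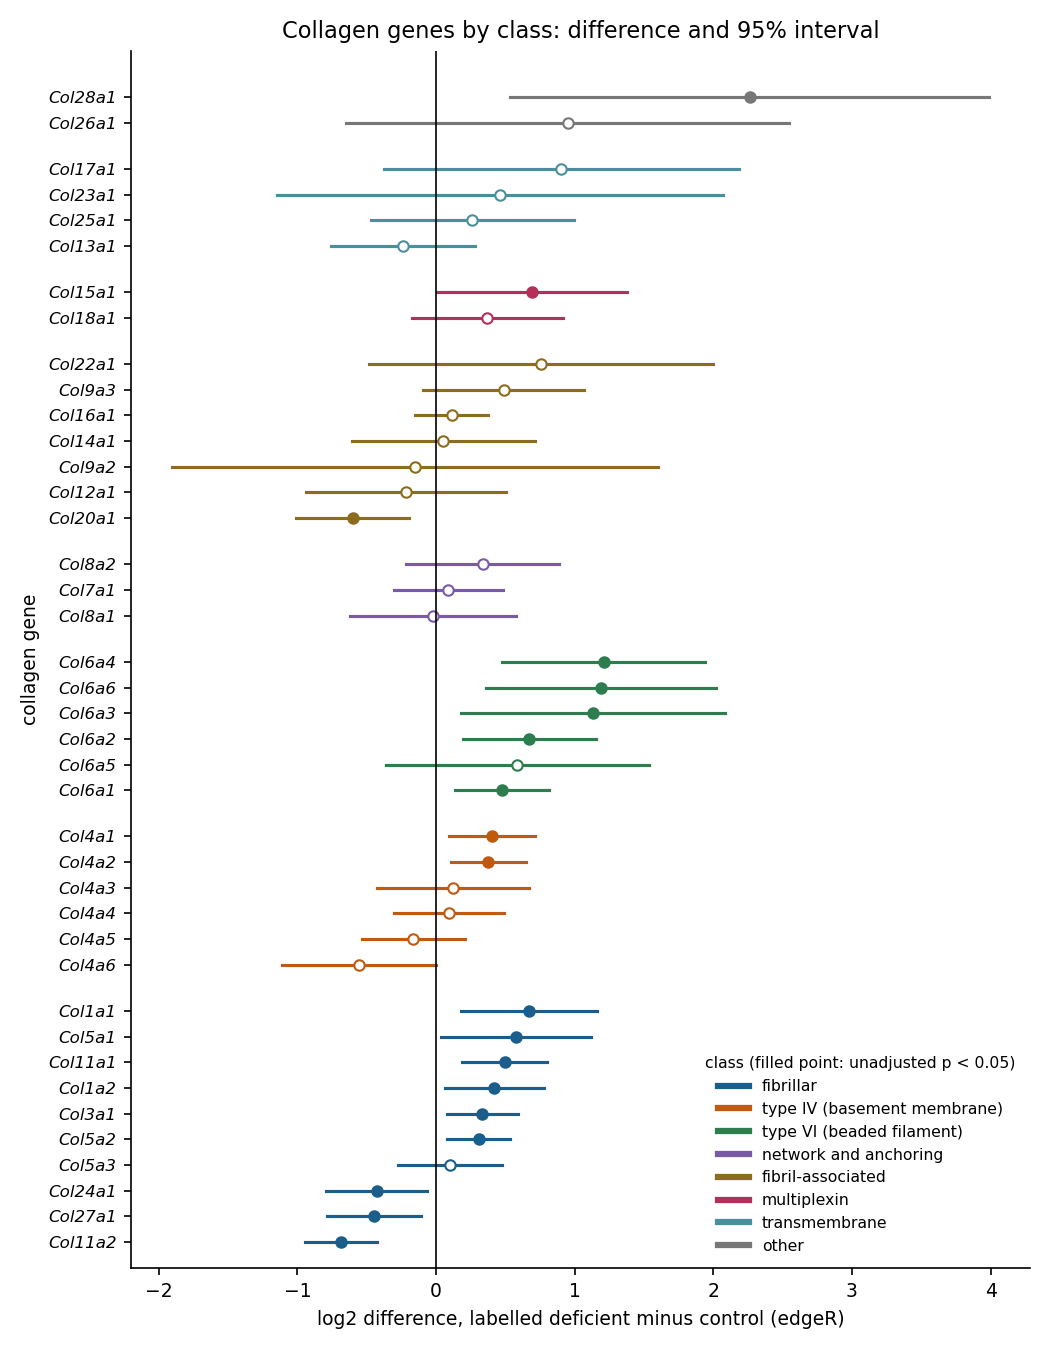
Log2 difference (labelled deficient minus control, x axis) with its 95% interval for the 40 collagen genes tested in edgeR, grouped by class on the y axis, 4 libraries a group. Filled points have an unadjusted p under 0.05; all 6 type VI chains lie to the right of 0, the fibrillar chains lie on both sides, and none of the 40 passed after adjustment over all genes.

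Type VI chains had the largest median difference of the classes with more than 2 tested members. All 6 had positive differences with a median of 0.90, 5 had an unadjusted p under 0.05, and those 5 were also DESeq2 calls (83.3% of the class, on backgrounds of 24.8% and 14.1%). COL6A1 and COL6A2 chains join a longer chain, COL6A3 or one of its relatives, and the assembled units form beaded filaments close to the cell surface. Col6a1 lies on chromosome 10 from 76708792 to 76726044 (GRCm38.p6) and measured 1296, 1771, 1687 and 1599 CPM in controls 1 to 4 and 1915, 2794, 2194 and 1936 CPM in libraries 1 to 4 labelled deficient. The groups did not overlap, and the ratio was 1.39 (95% interval 1.10 to 1.76, edgeR adjusted p = 0.121, DESeq2 adjusted p = 0.0273). Col6a2, its neighbour 85161 bases away, measured 999.9, 1766, 1625 and 1420.0 CPM in the controls and 1995, 3028, 2364 and 1874 CPM in the other group. It too was separated, at a ratio of 1.59 (1.14 to 2.22, edgeR adjusted p = 0.120, DESeq2 0.0224).

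Larger differences were measured for the longer type VI chains Col6a3, Col6a4 and Col6a6. Col6a3 measured 299, 928, 649.9 and 638 CPM in controls 1 to 4 and 987, 2322, 1436 and 772 CPM in libraries 1 to 4 labelled deficient, an overlap of control library 2 with library 4 labelled deficient. Its log2 difference was 1.13 ± 0.42 (SE), with an adjusted p of 0.153 in edgeR and 0.0379 in DESeq2. Col6a4, a chain that is expressed in mice and lies on chromosome 9 from 105990318 to 106096828, measured 557, 1154, 817 and 715 CPM against 1346, 3004, 1851 and 1295 CPM. Its lowest library labelled deficient was above its highest control, the difference was 1.21 ± 0.32 (edgeR adjusted p = 0.101, DESeq2 0.00373), and the ratio was 2.31 (1.39 to 3.84). Col6a6, from the same cluster on chromosome 9, measured 37.0, 48.5, 39.3 and 17.7 CPM against 59.0, 134, 72.3 and 59.4 CPM and also did not overlap (1.19 ± 0.36, edgeR adjusted p = 0.116, DESeq2 0.0136). Col6a5, the gene between these 2, overlapped, with 5.94, 10.7, 5.76 and 3.00 CPM against 5.43, 8.62, 14.9 and 9.14 CPM (0.59 ± 0.41, adjusted p = 0.400).

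Library 2 labelled deficient was the highest of the 8 for 5 of the 6 type VI chains, and library 3 for Col6a5. Type VI chains took 24.9, 30.2, 30.3 and 28.4% of all collagen counts in controls 1 to 4 and 29.0, 40.8, 37.2 and 30.9% in the 4 labelled deficient, so library 1 labelled deficient lay within the control range. Without libraries 2 and 3 labelled deficient the differences were 0.28 for Col6a1, 0.42 for Col6a2, 0.49 for Col6a3, 0.71 for Col6a4, 0.20 for Col6a5 and 0.74 for Col6a6. All 6 were smaller than with those libraries and still positive, Col6a4 was the one with an unadjusted p under 0.05 (0.0280), and DESeq2 called none of the 6. Summed stromal fibroblast markers ran from 1760.3 to 1963 CPM in the controls and from 1758 to 1998 CPM in the other group, with 4 of 9 markers positive. Summed macrophage markers ran from 486 to 644 CPM in the controls and from 662 to 918 CPM in the other group, with 6 of 7 tested markers positive. The macrophage sum was highest in libraries 2 and 3 labelled deficient, though Csf1r and Cd163 did not follow it. The part of these markers in the type VI result was not tested.

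**Figure D2:**
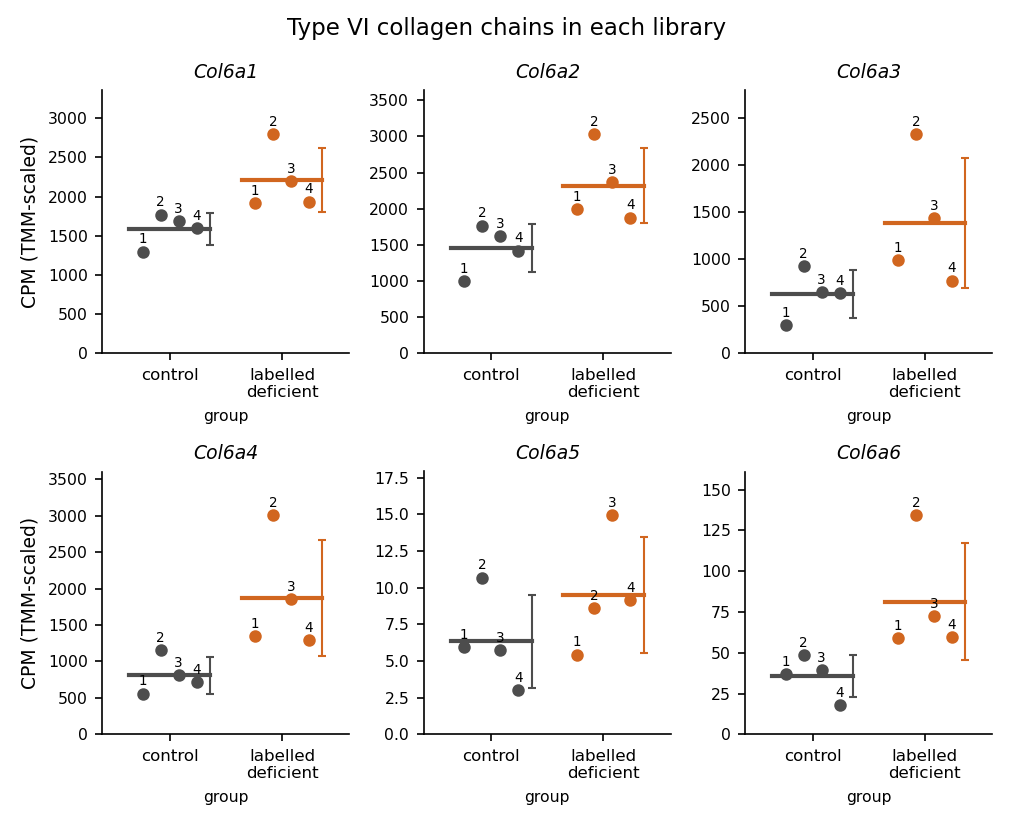
CPM (y axis, from 0) of the 6 type VI chains in each library, with points numbered by library, lines at the group means and bars of 1 SD (n = 4 a group). Library 2 labelled deficient is highest in every panel but that of Col6a5, and the groups do not overlap for Col6a1, Col6a2, Col6a4 and Col6a6.

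Among the fibrillar chains, those of types I, III and V and Col11a1 had positive differences and Col11a2, Col24a1 and Col27a1 negative ones. Of 10 tested members, 7 had positive and 3 negative differences (median 0.32), 6 and 3 of them with an unadjusted p under 0.05 (90.0% on a background of 24.8%). Calls by DESeq2 were 4 higher and 2 lower (6 of 10, on a background of 14.1%). Col1a1 and Col1a2 encode the chains of type I collagen, the main fibre-forming collagen. Col1a1, on chromosome 11 from 94936224 to 94953042, measured 1047, 1917, 1360.4 and 1607 CPM in controls 1 to 4 and 2232, 3124, 2218 and 1879 CPM in libraries 1 to 4 labelled deficient. Control library 2 lay just above library 4 labelled deficient, and the ratio was 1.59 (1.13 to 2.24, edgeR adjusted p = 0.123, DESeq2 0.0258). Col1a2, on chromosome 6 from 4505618 to 4541543, measured 1362, 2083, 1677 and 1918 CPM against 2244, 2876, 2299.8 and 2012 CPM, a ratio of 1.34 (1.04 to 1.72) that neither edgeR (0.156) nor DESeq2 (0.0692) called. Without libraries 2 and 3 labelled deficient the log2 differences were 0.48 for Col1a1 and 0.28 for Col1a2, and DESeq2 called neither (adjusted p = 0.209 and 0.391).

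Type III collagen, the product of Col3a1, forms thin fibres that mix with type I in distensible organs. Col3a1 measured 1876, 2623, 2224 and 2247 CPM in controls 1 to 4 and 3039, 2965, 2597 and 2698 CPM in libraries 1 to 4 labelled deficient, a ratio of 1.26 (1.05 to 1.51, edgeR adjusted p = 0.134, DESeq2 0.0400). The 2 groups met at control library 2, which was above library 3 labelled deficient. Col5a2, whose chain helps start fibrils and whose gene lies 24624 bases from Col3a1, measured 463, 606, 513 and 475 CPM against 654, 671, 639.5 and 581 CPM (0.31 ± 0.10, edgeR adjusted p = 0.124, DESeq2 0.0360). Its count was a steady fraction of that of Col3a1, with a within-library ratio of 0.230 ± 0.0144 in the controls and 0.226 ± 0.0147 in the other group (SD, n = 4). This ratio was not among those planned. Col5a1, the partner of Col5a2, was more variable at 359, 593, 482 and 447 CPM against 644, 1023, 653 and 486 CPM (0.58 ± 0.24, edgeR adjusted p = 0.182, DESeq2 0.0946), and control library 2 was above library 4 labelled deficient. Col5a3, a minor chain of the same type, ran from 83.9 to 129 CPM in the controls and from 102 to 152 CPM in the other group (0.10 ± 0.17, adjusted p = 0.725). With libraries 2 and 3 labelled deficient left out, the log2 differences were 0.36 for Col3a1, 0.27 for Col5a2 and 0.27 for Col5a1, none of them called by DESeq2 (adjusted p = 0.116, 0.251 and 0.512).

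The type XI genes had differences of opposite sign. Col11a1 and Col11a2 encode chains of a minor fibrillar collagen best known from cartilage, where it sits inside the fibrils and limits their width. Col11a1, on chromosome 3 from 114030479 to 114220756, measured 21.5, 23.6, 22.3 and 22.8 CPM in controls 1 to 4 and 40.7, 31.3, 25.9 and 29.2 CPM in libraries 1 to 4 labelled deficient, with no overlap (0.50 ± 0.13, edgeR adjusted p = 0.103, DESeq2 0.0139). Col11a2, on chromosome 17 from 34038919 to 34066684, measured 21.5, 18.8, 22.6 and 25.2 CPM against 15.4, 13.7, 13.0 and 12.7 CPM, lower in every library labelled deficient than in any control. Its difference of -0.69 ± 0.11 had the smallest p of the family (edgeR unadjusted p = 0.000282, adjusted p = 0.0906, DESeq2 adjusted p = 6.19e-06). The count of Col11a1 relative to Col11a2 in the same library, a ratio chosen after its values were seen, was 1.00, 1.26, 0.987 and 0.905 in the controls and 2.65, 2.29, 1.99 and 2.29 in the libraries labelled deficient. Every value of the second group was thus above the highest of the first. This follows from the genes being separated in opposite directions and is no further result. With libraries 2 and 3 labelled deficient left out, the differences were 0.64 for Col11a1 and -0.64 for Col11a2, and DESeq2 called both genes there too. Of 10 DESeq2 fits (all libraries, each of 8 left out, and those 2 left out together) Col11a2 was called in 10, Col6a4 in 9, Col6a6 in 8, Col11a1 in 7, Col20a1 in 6 and Col6a2 in 5. Col1a1, Col3a1, Col4a2, Col6a1 and Col6a3 were called in 4, and the other members in 3 or fewer.

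Other cartilage genes were looked at beside the type XI chains. Col2a1, the main cartilage collagen, had 1 to 10 counts per library and did not pass the filter, and neither did the cartilage markers Matn1 and Matn3. Sox9, a transcription factor of cartilage that gland epithelium also expresses, measured 30.0, 57.2, 39.7 and 35.5 CPM in controls 1 to 4 and 130.4, 91.3, 64.3 and 98.6 CPM in libraries 1 to 4 labelled deficient (1.24 ± 0.25, edgeR adjusted p = 0.0906). Acan, the large cartilage proteoglycan, was near the floor at 0.0964, 0.0988, 0.0411 and 0.0141 CPM against 1.05, 0.252, 0.411 and 0.315 CPM, and Hapln1, its link protein, ran from 0.254 to 1.08 CPM in the controls and from 0.596 to 2.25 CPM in the other group. All 3 tested cartilage markers had positive differences, though the groups overlapped for Hapln1 (edgeR adjusted p = 0.15, DESeq2 0.0559), and their summed values were 30.6 to 57.9 CPM in the controls and 65.3 to 134 CPM in the other group. Their part in the type XI result was not tested.

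The remaining tested fibrillar chains had negative differences. Col27a1, a fibrillar chain with a shorter helix, measured 117, 75.0, 105 and 109 CPM in controls 1 to 4 and 75.9, 78.3, 81.7 and 61.2 CPM in libraries 1 to 4 labelled deficient (-0.45 ± 0.15, edgeR adjusted p = 0.130, DESeq2 0.0477). Control library 2 lay within the range of the other group. Col24a1, a related chain, measured 61.3, 69.5, 52.4 and 73.2 CPM against 36.2, 53.9, 44.2 and 56.2 CPM (-0.43 ± 0.16, edgeR adjusted p = 0.155, DESeq2 0.0843), with overlap. Without libraries 2 and 3 labelled deficient the differences were -0.56 and -0.47, and DESeq2 called neither (adjusted p = 0.0520 and 0.172).

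Type IV genes lie in neighbouring pairs, and are described pair by pair. Of the 6 chains 4 had positive and 2 negative differences (median 0.11). An unadjusted p under 0.05 was found for 2 of them, or 33.3% on a background of 24.8%. Col4a1 and Col4a2 encode the chains found in nearly all basement membranes. In the RefSeq annotation of GRCm38.p6 they lie on chromosome 8 from 11198423 to 11312889 and on chromosome 8 from 11312805 to 11449287, an overlap of 85 bases. Col4a1 measured 969.9, 1048, 936 and 993 CPM in controls 1 to 4 and 1361, 1649, 1161 and 1051 CPM in libraries 1 to 4 labelled deficient (0.40 ± 0.14, edgeR adjusted p = 0.134, DESeq2 0.0464). Col4a2 measured 698, 770.2, 749.8 and 739 CPM against 1032, 1155, 833 and 823 CPM (0.38 ± 0.12, edgeR adjusted p = 0.120, DESeq2 0.0306). Both were higher in every library labelled deficient than in any control, by ratios of 1.32 (1.07 to 1.64) and 1.30 (1.08 to 1.57). Without libraries 2 and 3 labelled deficient the differences were 0.29 and 0.33, with DESeq2 adjusted p of 0.139 and 0.0491.

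Col4a3 and Col4a4 encode chains of specialised basement membranes such as that of the kidney glomerulus. They lie on chromosome 1 from 82586921 to 82722059 and on chromosome 1 from 82448419 to 82587034, where the annotation overlaps by 114 bases. Since it is not stated whether counting used the strand, reads in these overlaps cannot be assigned with certainty. Col4a3 measured 37.5, 39.1, 32.5 and 28.2 CPM in controls 1 to 4 and 26.1, 57.3, 30.6 and 35.5 CPM in libraries 1 to 4 labelled deficient (0.12 ± 0.24, adjusted p = 0.772). Col4a4 measured 25.6, 23.4, 19.4 and 19.9 CPM against 22.1, 31.9, 19.4 and 20.8 CPM (0.09 ± 0.17, adjusted p = 0.759). The groups overlapped for both, library 2 labelled deficient was the highest of the 8 for both, and both differences were negative without libraries 2 and 3 labelled deficient, at -0.15 and -0.04.

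Col4a5 and Col4a6 sit on the X chromosome, 1274 bases apart, and their chains build a network found in the basement membrane of smooth muscle. Col4a5, on chromosome X from 141475370 to 141689236, measured 351, 315, 283 and 280.1 CPM in controls 1 to 4 and 322, 200.5, 247 and 327 CPM in libraries 1 to 4 labelled deficient, with overlap (-0.16 ± 0.16, adjusted p = 0.550). Col4a6, on chromosome X from 141165403 to 141474095, measured 258, 238, 238 and 244 CPM against 207, 94.5, 139.5 and 225 CPM. Its controls lay close together and all 4 libraries labelled deficient were below them, but the libraries labelled deficient spread widely, and the difference of -0.55 ± 0.24 had an unadjusted p of 0.0510 and an adjusted p of 0.203 in edgeR. Without libraries 2 and 3 labelled deficient it was -0.18, a smaller difference (edgeR unadjusted p = 0.0412, adjusted p = 0.255). In the same fit the difference of Col4a5 was 0.08, with its sign reversed. Summed smooth muscle markers were 4246, 6003, 5091 and 6352 CPM in the controls and 4196, 4682, 4898 and 4471 CPM in the other group. All 9 had negative differences (median -0.24), 3 with an unadjusted p under 0.05 (background 11.8%), and the sums overlapped between the groups. The part of muscle content in the Col4a6 values was not tested.

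**Figure D3:**
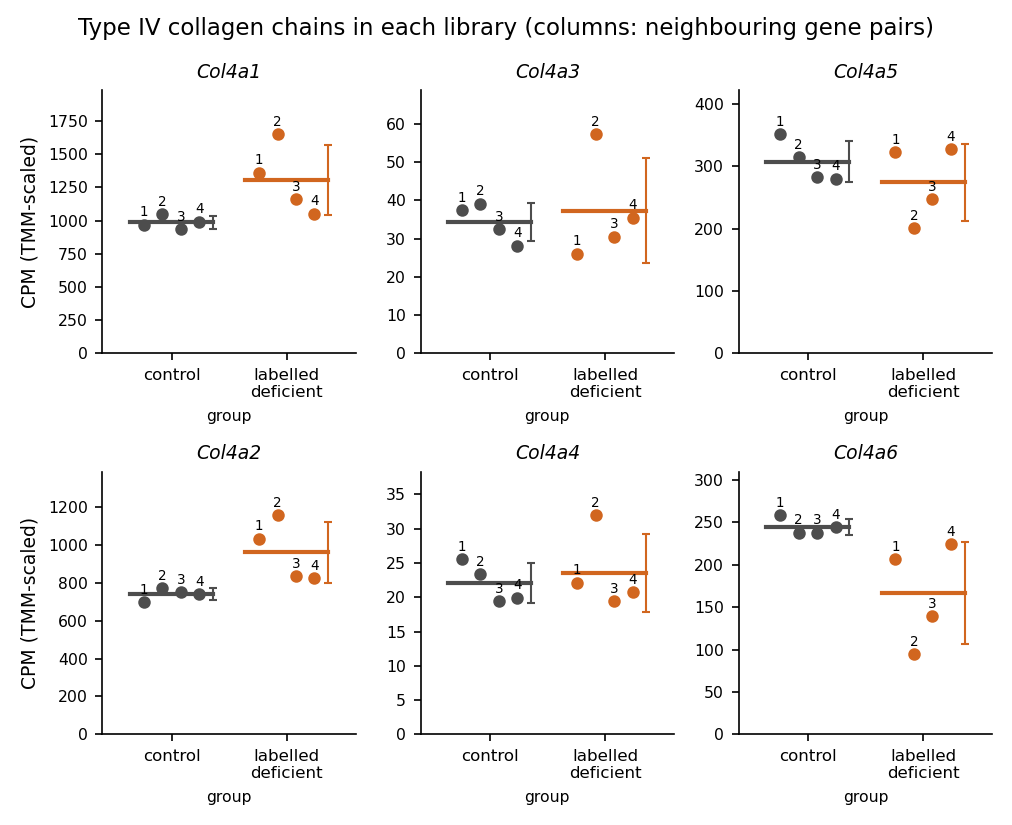
CPM (y axis, from 0) of the 6 type IV chains in each library, with the 2 neighbouring genes of a pair in 1 column, points numbered by library, lines at the group means and bars of 1 SD (n = 4 a group). Col4a1 and Col4a2 are higher in all 4 libraries labelled deficient, Col4a3 and Col4a4 overlap, and Col4a6 is lower in all 4, with library 2 the lowest at 94.5 CPM.

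Count ratios within a library show how steady the chains of 1 type were relative to each other. They are ratios of reads, which depend on transcript length, so their change between libraries can be read and their size cannot. Col4a1 to Col4a2 was steady, at 1.34 ± 0.0608 in the controls and 1.35 ± 0.0682 in the libraries labelled deficient (SD, n = 4). Col1a1 to Col1a2 was 0.769, 0.920, 0.811 and 0.838 in controls 1 to 4 and 0.994, 1.09, 0.964 and 0.934 in the 4 labelled deficient, higher in all 4. Col6a1 to Col6a2 was 1.12 ± 0.131 and 0.961 ± 0.0508, and Col6a3 to Col6a1 was 0.385 ± 0.120 and 0.600 ± 0.186. Both overlapped between the groups. Col5a1 to Col5a2 also overlapped, at 0.908 ± 0.0906 and 1.09 ± 0.299. Of the ratios chosen after their values were seen, Col4a5 to Col4a6 was 1.26 ± 0.102 and 1.73 ± 0.294 and did not overlap. Over all 8 libraries the ratio of Col4a1 to Col4a2 stayed within 1.25 to 1.43. No test was run on these ratios.

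**Figure D4:**
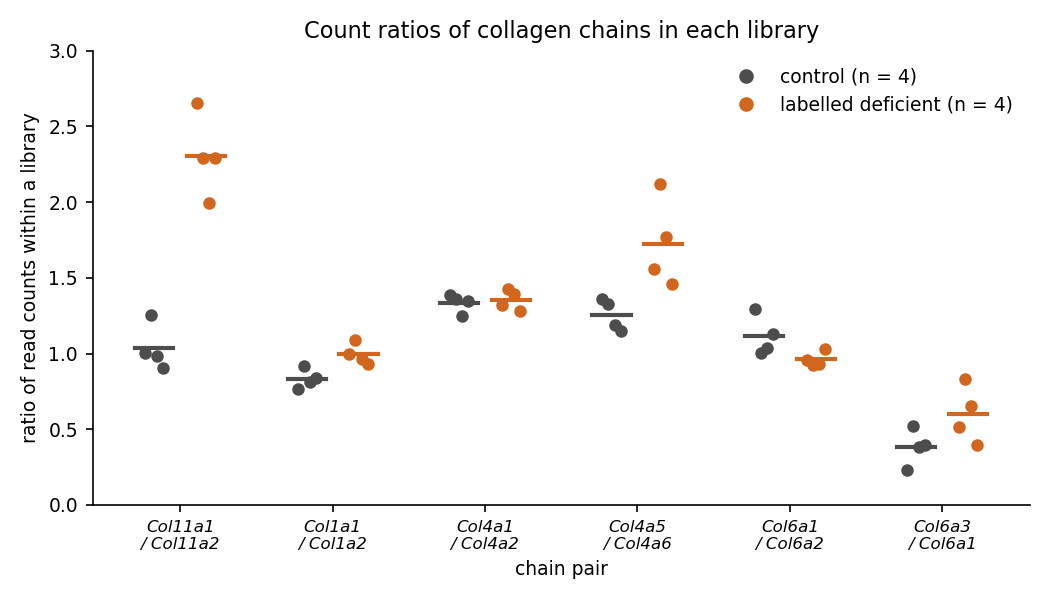
Ratio of read counts of 6 pairs of collagen chains (y axis, from 0) in each of the 8 libraries, as points by group with lines at the group means (n = 4). The ratio of Col11a1 to Col11a2 lies between 0.905 and 1.26 in the controls and between 1.99 and 2.65 in the libraries labelled deficient, while that of Col4a1 to Col4a2 overlaps. The gap for type XI follows from its genes being separated in opposite directions.

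Fibril-associated chains, which decorate the surface of fibrils, showed no common direction. Of 7 tested members 4 had positive and 3 negative differences (median 0.05), with 1 at an unadjusted p under 0.05 that was also a DESeq2 call (14.3%, on backgrounds of 24.8% and 14.1%). This was Col20a1, which measured 80.1, 70.7, 89.9 and 81.0 CPM in controls 1 to 4 and 66.5, 35.5, 52.2 and 57.9 CPM in libraries 1 to 4 labelled deficient, all 4 below all controls (-0.60 ± 0.18, edgeR adjusted p = 0.112, DESeq2 0.0227). Its difference was -0.37 without libraries 2 and 3 labelled deficient. Col12a1 and Col14a1, large chains on type I fibrils, overlapped widely: 58.0 to 140.4 CPM in the controls and 55.5 to 115 CPM in the other group for Col12a1, and 81.3 to 161 and 91.0 to 211 CPM for Col14a1. Col16a1 ran from 338 to 411 CPM in the controls and from 368 to 501 CPM in the other group. The class took 4.54 ± 0.242% of collagen counts in the controls and 3.24 ± 0.707% in the other group, without overlap, while its share of all counts was 0.0723 ± 0.00845% and 0.0708 ± 0.0140% and overlapped.

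Both multiplexins, which sit in the zone around basement membranes and release fragments that act on vessels, had positive differences. Col15a1 measured 451, 1011, 775 and 431 CPM in controls 1 to 4 and 1306, 854, 886 and 1267 CPM in libraries 1 to 4 labelled deficient (0.69 ± 0.30, edgeR unadjusted p = 0.0474, adjusted p = 0.197, DESeq2 0.102). Control libraries 2 and 3 were close to libraries 2 and 3 labelled deficient, and libraries 1 and 4 of the latter group were the highest of all, so that the difference is larger without libraries 2 and 3 by their choice alone (0.95, DESeq2 adjusted p = 0.0491). Col18a1, the source of endostatin, measured 537, 520.2, 532 and 359 CPM against 887, 467, 455 and 710.4 CPM (0.37 ± 0.24, adjusted p = 0.354). Its libraries 2 and 3 labelled deficient were below 3 of the controls, and for the same reason its difference without them was larger, at 0.72. Summed blood endothelial markers were 1251, 1027, 1137 and 1039 CPM in the controls and 1285, 701, 801 and 1153 CPM in the other group, again higher in libraries 1 and 4 of that group than in 2 and 3. Their part in the multiplexin values was not tested.

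A like order of libraries was seen in further chains. The 3 described first were picked for it after their values were seen. Col22a1, a chain of tissue junctions, measured 10.5, 10.5, 12.6 and 4.29 CPM in controls 1 to 4 and 30.3, 7.34, 6.46 and 19.8 CPM in libraries 1 to 4 labelled deficient. Col23a1, a transmembrane chain, measured 38.6, 23.6, 53.4 and 14.5 CPM against 86.5, 8.28, 19.5 and 64.9 CPM. Col26a1, first found in testis and ovary, measured 9.49, 3.56, 4.20 and 2.30 CPM against 21.4, 3.34, 2.99 and 10.1 CPM. In each, libraries 1 and 4 labelled deficient were high and libraries 2 and 3 near or below the controls, and with all 8 libraries the differences of 0.76 ± 0.54, 0.46 ± 0.70 and 0.95 ± 0.70 had adjusted p of 0.406, 0.702 and 0.418 in edgeR. Col9a2 and Col9a3, fibril-associated chains of cartilage, ran at 3.50 to 10.5 CPM in the controls and 0.742 to 11.5 CPM in the other group for Col9a2 and 3.41 to 4.80 and 3.47 to 7.31 CPM for Col9a3. In both, and in Col4a5, Col4a6, Col13a1, Col14a1 and Col20a1, libraries 1 and 4 labelled deficient were also above libraries 2 and 3.

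The 40 tested members differed in which library was highest. Library 2 labelled deficient was the highest of the 8 for 16 members and library 1 of that group for 11, while control library 1 was the lowest for 14. Library 2 led the type VI chains other than Col6a5, the type I chains and Col5a1, and library 1 led Col3a1, Col11a1, the multiplexins, Col22a1, Col23a1 and Col26a1.

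**Figure D5:**
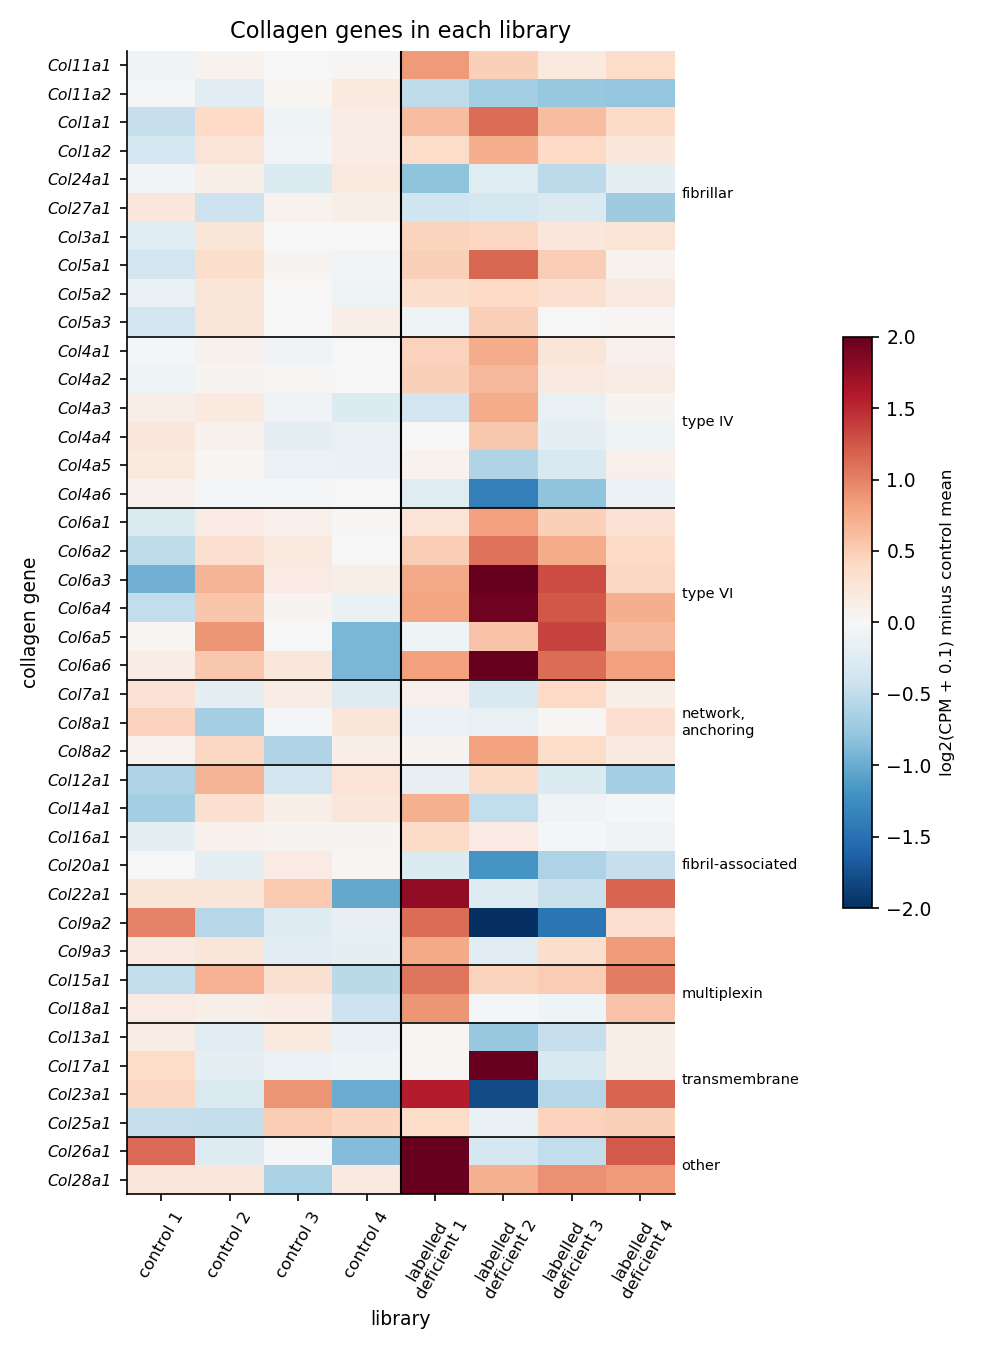
The 40 tested collagen genes (rows, by class) in the 8 libraries (columns), coloured by log2(CPM + 0.1) minus the mean of the 4 controls, with colours capped at 2 in each direction. Library 2 labelled deficient is darkest red in the type VI block, while Col22a1, Col23a1 and Col26a1 are red in libraries 1 and 4 of that group.

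The other chains had single libraries that stood out or no difference beyond their spread. Col28a1, a chain linked to peripheral nerve, was near the floor in the controls at 0.427, 0.423, 0.192 and 0.409 CPM and measured 4.88, 0.638, 0.752 and 0.711 CPM in libraries 1 to 4 labelled deficient, so that its difference of 2.26 ± 0.75 (edgeR adjusted p = 0.133) was set mainly by library 1, although all 4 lay above the controls. Without that library the difference was 0.95. DESeq2 gave no adjusted p for it over all 8 libraries and called it in 1 of the 10 fits, that without libraries 2 and 3 labelled deficient (0.00373). Col17a1, the hemidesmosome collagen of basal epithelium, is given in full for its single high library and was at 4.08, 2.75, 2.87 and 2.95 CPM and 3.21, 14.5, 2.51 and 3.45 CPM, with library 2 labelled deficient alone above the rest (0.90 ± 0.56, and -0.046 without that library). Summed epithelial markers were also highest in that library, though Krt18, Cldn3 and Cldn4 were not. The part of these markers in the Col17a1 value was not tested. Col7a1, which forms the anchoring fibrils under epithelium, ran from 139 to 203 CPM in the controls and from 135 to 219.9 CPM in the other group (0.09 ± 0.17, adjusted p = 0.768). Col8a2 (0.34 ± 0.24) and Col8a1 (-0.02 ± 0.26), network-forming chains, and the transmembrane chains Col13a1 (-0.24 ± 0.23) and Col25a1 (0.26 ± 0.32) also overlapped. Of the 4 members below the filter, Col19a1 had 1 to 8 counts, Col2a1 1 to 10, and Col9a1 3 to 39. Col10a1, a cartilage network chain, had 1, 1, 2 and 3 counts in controls 1 to 4 and 15, 43, 9 and 2 in the 4 labelled deficient.

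Enzymes and chaperones that process collagen chains more often had positive than negative differences. Of 29 tested genes 22 had positive differences (median 0.30, against 0.01 over all genes), 12 higher and 3 lower at an unadjusted p under 0.05, 0 at an adjusted p under 0.05 in edgeR, and 8 higher and 1 lower in DESeq2. These are 51.7% on a background of 24.8% and, in DESeq2, 31.0% on 14.1%. Fkbp10, a chaperone of procollagen in the endoplasmic reticulum, measured 84.9, 90.9, 93.7 and 82.5 CPM in controls 1 to 4 and 117, 112, 102 and 103 CPM in libraries 1 to 4 labelled deficient (0.30 ± 0.07, edgeR adjusted p = 0.0906). Adamts14, which trims the amino-terminal propeptide of fibrillar procollagens, measured 24.5, 39.9, 20.7 and 17.1 CPM against 48.2, 103, 71.4 and 42.6 CPM (1.38 ± 0.35, edgeR adjusted p = 0.0988). Neither overlapped between the groups. Loxl1, a cross-linking enzyme, was at 0.69 ± 0.17 (edgeR adjusted p = 0.0959) with overlap at library 4 labelled deficient.

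Proteins that bind fibrils had 18 of 24 positive differences (median 0.26), with 6 higher and 3 lower at an unadjusted p under 0.05, 0 called by edgeR, and 5 higher and 2 lower called by DESeq2 (37.5% on a background of 24.8%, and 29.2% on 14.1%). Fbn1, the main microfibril protein, measured 246, 306, 233 and 178 CPM against 426, 423, 329.6 and 305 CPM (0.62 ± 0.18), Fmod, a small proteoglycan that binds type I fibrils, was at 1.19 ± 0.33, and Efemp2, an elastic fibre protein, at 0.38 ± 0.10. Their adjusted p in edgeR were 0.107, 0.106 and 0.0987. Of 20 basement membrane partners 12 were positive and 8 negative (median 0.08). At an unadjusted p under 0.05 1 was higher and 4 lower, or 25.0%, a share near the background of 24.8%, while 0 were called by edgeR and 1 higher and 3 lower by DESeq2 (4 of 20, on 14.1%). Lamb2, the laminin chain of muscle and vessel basement membranes, measured 513, 552, 506 and 567 CPM in controls 1 to 4 and 445, 376, 403 and 486 CPM in libraries 1 to 4 labelled deficient (-0.32 ± 0.09, edgeR adjusted p = 0.107). Lama3 (-0.78 ± 0.26), an epithelial laminin chain, and Frem2 (-1.06 ± 0.33), a protein of epithelial basement membranes, were also below all controls in all 4.

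Receptors and breakdown enzymes had differences of both signs. Of 12 tested collagen receptors 5 were positive and 7 negative (median -0.22), with 3 higher and 4 lower at an unadjusted p under 0.05 (58.3% on a background of 24.8%), 0 called by edgeR, and 2 higher and 3 lower called by DESeq2 (41.7% on 14.1%). Itga1, the alpha subunit of an integrin that binds type IV collagen and is common on smooth muscle, measured 37.7, 43.2, 36.2 and 59.0 CPM against 33.7, 23.8, 29.3 and 23.2 CPM (-0.68 ± 0.19, edgeR adjusted p = 0.104). Itga11, an integrin subunit for fibrillar collagen on fibroblasts, was at -1.19 ± 0.37, and Mrc2, an endocytic receptor that clears collagen fragments, at 0.22 ± 0.06. Of 13 tested genes of collagen breakdown 8 were positive and 5 negative (median 0.06), with 2 higher and 1 lower at an unadjusted p under 0.05 (23.1%, a share near the background of 24.8%), 0 called by edgeR, and 1 higher called by DESeq2 (7.69% on 14.1%). Mmp2, a gelatinase, measured 848, 584, 673 and 745 CPM against 602, 384, 498 and 624 CPM (-0.44 ± 0.17, edgeR adjusted p = 0.173), Timp1, an inhibitor of metalloproteinases, was at 0.89 ± 0.29, and Prep, a peptidase that cuts after proline, at 0.27 ± 0.11.

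Markers of other cell types had their own differences beside these results. Mesothelial markers were negative in 6 of 6 (median -0.57, summed level 306 to 394 CPM in the controls and 155 to 250.2 CPM in the other group). Wt1 was most of that sum, at 254 to 271 CPM and 103 to 191 CPM. Wt1 and Upk1b were lower without overlap, while Gpm6a, Upk3b, Msln and Lrrn4 overlapped. Skeletal muscle markers were negative in 5 of 5 tested (median -0.46, 76.8 to 112 and 53.7 to 71.4 CPM). Most of their sum was Acta1, at 58.8 to 93.3 and 40.9 to 59.6 CPM, with overlap. Ckm and Mylpf had means of 0.657 and 2.70 CPM in the controls, and Myh4 did not pass the filter. Pericyte markers were positive in 1 of 6 (median -0.06, 651 to 738 and 479 to 764 CPM), and Schwann cell markers in 4 of 6 (median 0.10, 38.5 to 45.0 and 32.8 to 74.8 CPM). Pdgfra, which marks stromal fibroblasts, ran from 521 to 606 CPM in the controls and from 494 to 612 CPM in the other group (-0.05 ± 0.08). Of the 9 markers in its list 4 had positive and 5 negative differences. Among them were Hand2 (-0.75 ± 0.25, edgeR adjusted p = 0.134), lower without overlap, and Dpep1 (0.79 ± 0.32, edgeR adjusted p = 0.181). Whether any of these cell types had a part in the collagen values was not tested.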

How the data were processed

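Per the submitters' processing notes, reads were processed with HISAT2 2.2.1 and HTSeq 0.10.0 on build mm10. Not given in the sources used here were settings and strand. The deposited values are whole-number counts per gene symbol, not normalized, in 1 table, and its columns were matched to the sample titles. No 2 libraries agreed within sampling noise (chi-square at least 49.2 per degree of freedom).

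Genes were filtered with filterByExpr, which left 17629, scaled with TMM and tested with edgeR 4.0.16 (glmQLFit and glmQLFTest, R 4.3.3) in a model of group alone, with Benjamini-Hochberg adjustment over all genes at a threshold of 0.05. SE is the size of the log2 difference divided by the root of F. DESeq2 1.42.0 and limma-voom (limma 3.58.1) were alternatives. Each fit was tested on simulated counts with known changes. Alternatives are listed in the closing section. Coordinates come from RefSeq on GRCm38.p6, the same assembly as mm10, in a table that matched 210 of the 215 symbols used. It holds no transcript lengths, so levels were not compared per length between genes, and the part of the rule that ranks genes per length was not applied. Collagen members and lists were chosen with earlier results of these data known. Members given in full had an unadjusted p under 0.05 or were type IV or VI chains; Col17a1, Col18a1, Col22a1, Col23a1 and Col26a1 met neither condition and were added after their values were seen. List genes are the 3 with the smallest p.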

Additional observations from a re-analysis of the deposited data

Results flagged for a closer look

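In groups of 4 libraries, a value was singled out when its gap to the nearest other value, divided by the range of the group, was above Dixon's 95% critical value. This was tried for 40 members in 2 groups and for the class shares, and chance alone singles out about 1 group in 20. Of 80 member groups 7 were singled out. In library 2 labelled deficient Col17a1 was at 14.5 CPM against 2.51 to 3.45 CPM in the other 3, and in control library 1 it was at 4.08 CPM. Col28a1 was at 4.88 CPM in library 1 labelled deficient against 0.638 to 0.752 CPM, and at 0.192 CPM in control library 3. In control library 4 Col18a1 was at 359 CPM against 520 to 537 CPM. Control library 1 had Col16a1 at 338 CPM against 400 to 411 CPM, and Col9a2 at 10.5 CPM against 3.50 to 4.67 CPM. Among the shares, multiplexins took 5.11% of collagen counts in control library 4 against 7.72 to 8.20%, the class of other chains took 0.0775% of collagen counts in control library 1 against 0.0175 to 0.0276%, and fibril-associated chains took 0.0917% of all counts in library 1 labelled deficient against 0.0629 to 0.0650%.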

How the results depend on the processing

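No collagen gene was called by edgeR under TMM, RLE or library-total scaling, with no filter or with 1 CPM in at least 4 libraries, with legacy=FALSE, with a replicate block, or without any 1 library, nor by limma-voom, while DESeq2 called 14. Over all genes edgeR called 0, limma-voom 2, legacy=FALSE 3, the replicate block 23 and DESeq2 2488. On leaving out 1 library the edgeR count over all genes ran from 0 to 2, that at an unadjusted p under 0.05 from 2870 to 5426 (4372 with all), and that of collagen genes from 15 to 19 (19 with all). DESeq2 calls ran from 922 to 3920 over all genes, being 1302 when control library 1 and 1539 when library 2 labelled deficient was left out. Over collagen genes they ran from 3 to 17, with 4 without control library 3 and 9, 5 and 7 without libraries 1, 2 and 3 labelled deficient. The backgrounds of these fits are given with the DESeq2 counts above. DESeq2 calls were 1459 over all genes without libraries 2 and 3 labelled deficient. The numbers did not pair the libraries (correlations of same-numbered deviations 0.202, 0.236, -0.012 and -0.0779), and with the replicate block 19 collagen genes had an unadjusted p under 0.05, 18 of them shared with the fit without it (Col15a1 was lost and Col4a6 gained). The cause of these changes was not tested.

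Signs turned for some members, among them Col17a1 (0.90 with all libraries) and Col23a1 (0.46). Without libraries 2 and 3 labelled deficient those that turned were Col13a1 (0.073), Col4a3 (-0.15), Col4a4 (-0.039), Col4a5 (0.085), Col5a3 (-0.052), Col8a1 (0.074) and Col9a2 (0.66). Col8a1 was also at 0.028 in limma-voom and 0.026 with the replicate block. On leaving out 1 library, the log2 difference ran over -0.43 to 0.053 for Col12a1, -0.23 to 0.21 for Col14a1, -0.046 to 1.15 for Col17a1, -0.074 to 0.81 for Col23a1, -0.16 to 0.26 for Col4a3, -0.085 to 0.17 for Col4a4, -0.039 to 0.19 for Col5a3, -0.031 to 0.21 for Col7a1, -0.20 to 0.14 for Col8a1 and -0.90 to 0.31 for Col9a2. The other 30 tested members kept their sign with any 1 library left out. None of the 16 list genes, Pgr included, turned under any alternative. Apart from Pgr these were the 3 of smallest p in each list of collagen-related genes, a choice that favours steady signs. Signs of the other list genes and of the cell type markers were not compared across the alternatives. Counts per kilobase were not run, as no transcript lengths were at hand. At 4 libraries a group, members with few counts such as Col25a1 and Col28a1 are the least precise.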
